A study of Homo sapiens with 16 samples.

Results

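Centrosome and centriole genes were followed through cells that had received a guide RNA against YES1, a tyrosine kinase of the Src family. They were taken as the protein-coding genes named CEP and a number, together with PLK4, STIL, SASS6, CENPJ, CNTROB, PCNT, PCM1, CDK5RAP2, NEDD1, TUBG1, TUBGCP2, TUBGCP3, NIN and ODF2. Genes on chromosome 18 and hyphenated names were left out, which removed CEP192 and CEP76. This gave 48 of the 58735 genes in the count tables. Of these, 47 passed the filter on low counts in every comparison. CEP295NL did not, with 7 to 28 counts per library in SUM159PT sgYES1, 3 to 8 in SUM159PT sgNTS, 1 to 9 in MDA-MB-231 sgYES1 and 0 to 5 in MDA-MB-231 sgNTS.

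The groups were SUM159PT with the guide against YES1 (sgYES1), SUM159PT with a non-targeting guide (sgNTS), MDA-MB-231 with sgYES1 and MDA-MB-231 with sgNTS, with 4 libraries in each. Both are established human lines of triple-negative breast cancer, the genotype of all cells was given as wild type, and all were lipofected and collected 48 h later. The sources used here do not name the protein that acts with the guides, and they describe bulk cultures rather than edited clones. The submitters call the replicates technical, so p-values measure only the spread between these libraries.

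The centrosome organises the microtubules of animal cells and the poles of the mitotic spindle. It holds a pair of centrioles, each of which builds 1 daughter per cell cycle: the kinase PLK4 starts the process, STIL and the cartwheel protein SASS6 carry it out, and other proteins set the length of the new centriole. Around the centrioles lies pericentriolar material, in which PCNT and CDK5RAP2 hold the gamma-tubulin complexes that nucleate microtubules. The older centriole carries distal appendages, which dock it to a membrane to form a cilium, and subdistal appendages, which anchor microtubules. The 48 genes were grouped by role into 14 of centriole duplication and elongation, 9 of the pericentriolar material and gamma-tubulin, 13 of the linker, appendages and anchoring, 7 of satellites and the ciliary base, the midbody protein CEP55, and 4 others.

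Gene counts (in units of 1e6) summed to 14.4 to 20.9 per library in SUM159PT and to 17.2 to 25.1 in MDA-MB-231, and the 48 genes together held 31173 to 44776 and 42539 to 64975 of them. YES1 itself averaged 39.7 ± 0.754 CPM in sgYES1 and 94.2 ± 3.21 CPM in sgNTS cells of SUM159PT, and 42.7 ± 1.10 CPM in sgYES1 and 108 ± 3.07 CPM in sgNTS cells of MDA-MB-231 (SD, n = 4 each; two-sided exact permutation p = 0.0286 in each line, the smallest that 4 against 4 allows). CPM are TMM-scaled counts per 1e6 counts. Markers fitted the labels in part. VIM and FN1 were high, PGR was at 0 in every library and ESR1 averaged below 1 CPM in each group. The receptor gene ERBB2, however, averaged 96.2 to 110 CPM across the groups. The mesenchymal marker CDH2 averaged 83.0 CPM in SUM159PT sgYES1 and 97.9 CPM in SUM159PT sgNTS cells, but 0.664 and 0.543 CPM in those of MDA-MB-231. In each group 3 of 6 epithelial markers averaged below 1 CPM, while KRT8 averaged 599 to 886 CPM and KRT18 170 to 296 CPM. EPCAM averaged 0.0123 CPM in SUM159PT sgYES1 cells, 0 in SUM159PT sgNTS cells, 9.54 CPM in MDA-MB-231 sgYES1 cells and 11.8 CPM in MDA-MB-231 sgNTS cells. Summed leukocyte markers were low, at 0.937 to 1.79 CPM in sgYES1 and 0.214 to 0.668 CPM in sgNTS libraries of SUM159PT, and at 2.89 to 3.64 CPM in sgYES1 and 1.15 to 1.98 CPM in sgNTS libraries of MDA-MB-231. CD3E and MS4A1 were at 0. Replicate 4 of MDA-MB-231 sgNTS stood apart from its group.

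In SUM159PT, most of the centrosome genes that moved were lower after sgYES1, among them 6 of the 9 genes of the pericentriolar material and gamma-tubulin. Of 47 genes tested, 20 fell and 2 rose (edgeR quasi-likelihood test, Benjamini-Hochberg adjusted p under 0.05). Those are 42.6% and 4.26% of the genes. Of all 14479 genes tested, 39.4% were called, 19.7% lower and 19.6% higher. Of the protein-coding genes among them, 43.2% were called, 21.6% lower and 21.6% higher. The median log2 fold change of the 47 genes was -0.16, against -0.01 over all genes. Groups did not overlap for 21 genes with lower and 1 with higher values in sgYES1, which in all genes held for 18.2% and 16.8%. Changes were small: 13 of the 47 genes (27.7%) were called and at least 25% higher or 20% lower, against 18.7% of all genes tested, and CEP120 alone reached 1.5-fold. In bulk RNA, fewer cells in a stage of the cell cycle and less RNA per cell cannot be told apart.

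The lowest fold change in SUM159PT was that of CEP120 (chr5:123344885-123423592, hg38), which works with CENPJ in centriole elongation. It had 22.9, 22.9, 22.2 and 21.3 CPM in the 4 sgYES1 libraries, against 40.4, 30.8, 39.5 and 35.9 CPM in the 4 sgNTS libraries. Every sgYES1 value lay below every sgNTS value, and CEP120 was 1.63-fold lower (log2 fold change -0.70, SE 0.08, adjusted p = 6.04e-07). CEP44, a protein of the centriole lumen, had 15.3, 14.7, 14.4 and 15.3 CPM in the 4 sgYES1 libraries, against 22.6, 22.8, 18.6 and 21.8 CPM in the 4 sgNTS libraries. Its groups did not overlap either (log2 fold change -0.51, SE 0.08, adjusted p = 3.79e-05). CEP152, the scaffold that brings PLK4 to the parent centriole, had 12.8, 13.99, 14.2 and 14.9 CPM in the 4 sgYES1 libraries, against 20.01, 16.5, 19.5 and 18.8 CPM in the 4 sgNTS libraries, again without overlap (log2 fold change -0.41, SE 0.09, adjusted p = 0.000638). CEP78, of the mature centriole, was the last of the 4 called genes of duplication and elongation.

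The other 10 genes of duplication and elongation had no call in SUM159PT. PLK4, the starting kinase, had 32.9, 26.5, 27.8 and 28.6 CPM in the 4 sgYES1 libraries, against 33.8, 32.7, 29.4 and 30.6 CPM in the 4 sgNTS libraries, and these ranges overlapped (log2 fold change -0.12, SE 0.07, adjusted p = 0.229). STIL, its partner, had 38.2, 31.5, 35.05 and 33.2 CPM in the 4 sgYES1 libraries, against 33.8, 32.3, 31.9 and 29.3 CPM in the 4 sgNTS libraries, which overlapped as well (log2 fold change 0.13, SE 0.07, adjusted p = 0.155). SASS6, which forms the cartwheel, had 13.2, 11.7, 12.3 and 11.9 CPM in the 4 sgYES1 libraries, against 13.6, 13.6, 13.6 and 12.6 CPM in the 4 sgNTS libraries (log2 fold change -0.11, SE 0.09, adjusted p = 0.351). The regulators CEP85 and CEP97 overlapped too. CEP85 had 42.5, 48.8, 44.1 and 46.9 CPM in the 4 sgYES1 libraries, against 40.7, 46.2, 46.8 and 43.2 CPM in the 4 sgNTS libraries (log2 fold change 0.05, SE 0.06, adjusted p = 0.54), and CEP97 had 18.7, 18.5, 21.3 and 20.2 CPM in the 4 sgYES1 libraries, against 22.3, 22.7, 19.7 and 23.6 CPM in the 4 sgNTS libraries (log2 fold change -0.16, SE 0.08, adjusted p = 0.109). CENPJ, a tubulin-binding elongation factor, had 20.96, 20.9, 21.9 and 19.7 CPM in the 4 sgYES1 libraries, against 22.4, 24.1, 22.1 and 23.9 CPM in the 4 sgNTS libraries. Its values did not overlap, yet the change was small and not called (log2 fold change -0.14, SE 0.07, adjusted p = 0.124), with a 95% interval of -0.29 to 0.01.

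Of the 9 genes of the pericentriolar material and gamma-tubulin, 6 fell in SUM159PT and none rose, with a median log2 fold change of -0.33. NEDD1, which recruits gamma-tubulin complexes, had 32.3, 26.9, 32.8 and 28.9 CPM in the 4 sgYES1 libraries, against 42.7, 42.8, 42.3 and 42.2 CPM in the 4 sgNTS libraries. The 4 control values were nearly equal and all lay above the sgYES1 values (log2 fold change -0.48, SE 0.07, adjusted p = 6.62e-06). CEP72, a protein that helps recruit other centrosome components, had 40.8, 42.4, 37.6 and 39.9 CPM in the 4 sgYES1 libraries, against 59.9, 50.7, 60.6 and 53.2 CPM in the 4 sgNTS libraries, and was 1.39-fold lower (log2 fold change -0.47, SE 0.06, adjusted p = 7.13e-06). CEP57, which surrounds the base of the centriole, had 38.5, 34.6, 32.6 and 37.6 CPM in the 4 sgYES1 libraries, against 53.9, 46.9, 50.3 and 49.3 CPM in the 4 sgNTS libraries, without overlap (log2 fold change -0.47, SE 0.06, adjusted p = 6.74e-06).

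CEP57L1, the paralog of CEP57, fell by a similar fitted amount (log2 fold change -0.43, SE 0.08, adjusted p = 0.000358). CDK5RAP2, an anchor and activator of gamma-tubulin complexes, had 84.5, 89.003, 87.8 and 88.5 CPM in the 4 sgYES1 libraries, against 111, 113, 113 and 104 CPM in the 4 sgNTS libraries, all sgYES1 values being lower (log2 fold change -0.33, SE 0.05, adjusted p = 1.04e-05). TUBGCP3, a subunit of those complexes, had 45.3, 43.3, 38.9 and 45.4 CPM in the 4 sgYES1 libraries, against 48.4, 50.2, 48.7 and 52.3 CPM in the 4 sgNTS libraries, a smaller fall (log2 fold change -0.20, SE 0.06, adjusted p = 0.0101) whose call ended without sgYES1 replicate 3 (adjusted p = 0.0549). The scaffold PCNT had 121, 122, 122 and 117 CPM in the 4 sgYES1 libraries, against 111, 121, 122 and 116 CPM in the 4 sgNTS libraries and no call (log2 fold change 0.05, SE 0.04, adjusted p = 0.431). TUBG1, gamma-tubulin itself, had 114, 123, 117 and 117 CPM in the 4 sgYES1 libraries, against 106, 123, 109 and 119 CPM in the 4 sgNTS libraries, and the ranges overlapped (log2 fold change 0.05, SE 0.05, adjusted p = 0.466). TUBGCP2, the partner subunit of TUBGCP3, was not called (log2 fold change -0.07, SE 0.05, adjusted p = 0.236).

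Among the 13 genes of the linker, appendages and anchoring, 6 fell and 2 rose in SUM159PT. The 2 that rose were the distal appendage genes CEP89 and CEP164, while CEP83, another distal appendage gene, fell. CEP89 had 57.6, 59.3, 60.6 and 55.7 CPM in the 4 sgYES1 libraries, against 41.5, 48.9, 41.3 and 45.04 CPM in the 4 sgNTS libraries, each sgYES1 value being above each sgNTS value (log2 fold change 0.40, SE 0.06, adjusted p = 1.59e-05). CEP164 had 38.97, 43.6, 44.4 and 42.8 CPM in the 4 sgYES1 libraries, against 33.2, 39.99, 35.5 and 39.05 CPM in the 4 sgNTS libraries, where the ranges overlapped (log2 fold change 0.20, SE 0.07, adjusted p = 0.0167). Its call was lost without sgYES1 replicate 3 or sgNTS replicate 1, at adjusted p of 0.0591 to 0.0803. CEP83, on which the other distal appendage proteins depend for assembly, had 14.7, 15.1, 15.7 and 14.3 CPM in the 4 sgYES1 libraries, against 19.9, 18.8, 22.5 and 18.7 CPM in the 4 sgNTS libraries, with no overlap (log2 fold change -0.41, SE 0.08, adjusted p = 0.000479).

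The subdistal appendage genes NIN, CEP170, CEP128 and ODF2 fell. NIN, which anchors microtubules, had 26.9, 26.5, 25.7 and 23.2 CPM in the 4 sgYES1 libraries, against 30.7, 34.6, 35.1 and 33.000 CPM in the 4 sgNTS libraries (log2 fold change -0.37, SE 0.07, adjusted p = 0.00021). CEP170 had 48.9, 41.9, 43.8 and 47.1 CPM in the 4 sgYES1 libraries, against 51.9, 54.6, 54.7 and 51.7 CPM in the 4 sgNTS libraries (log2 fold change -0.22, SE 0.06, adjusted p = 0.00524). CEP128 (log2 fold change -0.41, SE 0.09) and ODF2, required for appendages (-0.22, SE 0.05), were lower too, as was the linker gene CEP68. CEP68 had 26.8, 27.2, 27.4 and 27.7 CPM in the 4 sgYES1 libraries, against 32.7, 29.9, 32.5 and 33.3 CPM in the 4 sgNTS libraries (log2 fold change -0.23, SE 0.06, adjusted p = 0.0063). In each of these 5 genes the sgYES1 values lay below all sgNTS values. CEP250, the anchor of the linker between centrioles, was not called (95% interval of the log2 fold change -0.15 to 0.06). Nor were CEP170B, CEP350, CEP112 and CEP19 of the same group, at log2 fold changes of 0.10, 0.03, -0.08 and -0.23.

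Satellites are granules around the centrosome. Of 7 genes of satellites and the ciliary base, PCM1 and CEP131 fell in SUM159PT and none rose. PCM1, the scaffold of satellites, had 88.7, 83.7, 82.1 and 79.4 CPM in the 4 sgYES1 libraries, against 105, 96.7, 99.2 and 97.1 CPM in the 4 sgNTS libraries (log2 fold change -0.25, SE 0.05, adjusted p = 0.000532), and CEP131 had a log2 fold change of -0.28 (SE 0.07). CEP290, of satellites and the gate at the base of the cilium, had 18.4, 19.1, 20.9 and 17.9 CPM in the 4 sgYES1 libraries, against 21.3, 21.4, 20.3 and 18.3 CPM in the 4 sgNTS libraries, which overlapped (log2 fold change -0.08, SE 0.08, adjusted p = 0.449). CEP55, which brings the abscission machinery to the midbody, had 91.3, 83.1, 86.7 and 86.6 CPM in the 4 sgYES1 libraries, against 97.3, 100.3, 100.2 and 103 CPM in the 4 sgNTS libraries, a fall without overlap (log2 fold change -0.20, SE 0.05, adjusted p = 0.00164). CEP70, which binds gamma-tubulin, had 26.3, 24.5, 25.3 and 25.2 CPM in the 4 sgYES1 libraries, against 32.6, 35.4, 36.7 and 38.2 CPM in the 4 sgNTS libraries, one of the lower values among the 47 genes (log2 fold change -0.49, SE 0.07, adjusted p = 4.89e-06).

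**Figure D1:**
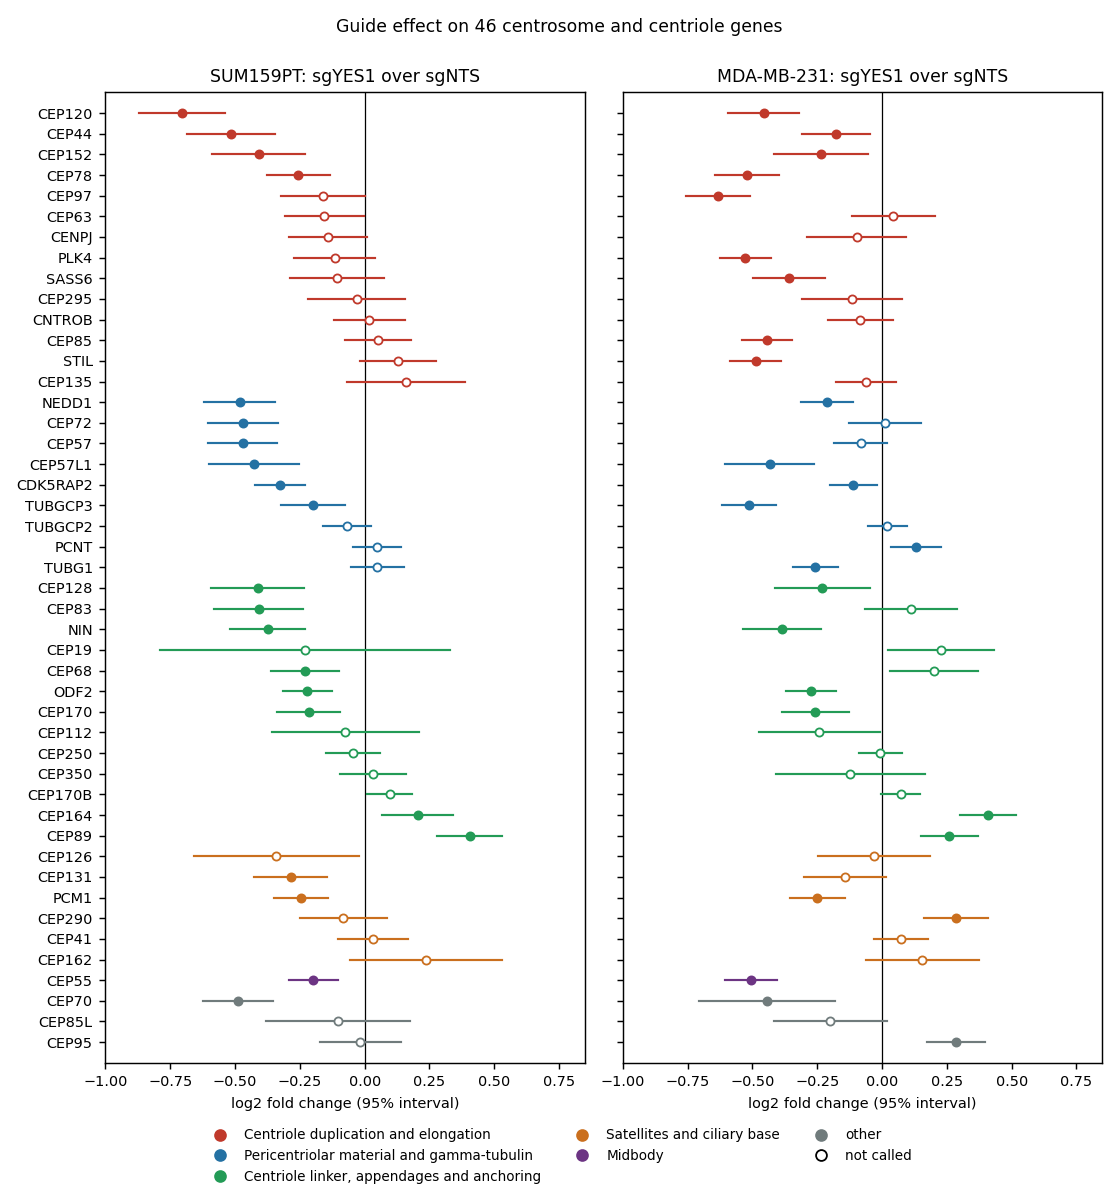
Fitted log2 fold changes of sgYES1 over sgNTS with 95% intervals for 46 of the 47 tested genes, ordered by role (colours) and, within a role, by the value in SUM159PT. Left, SUM159PT. Right, MDA-MB-231. Filled points passed the edgeR test. CEP120 lies furthest left in SUM159PT and CEP97 in MDA-MB-231, while CEP164 and CEP89 lie right of 0 in both.

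In MDA-MB-231 too, most of the centrosome genes that moved were lower after sgYES1, among them the kinase PLK4 and its partner STIL. Of 47 genes tested, 21 fell and 5 rose, which is 44.7% and 10.6%. Of all 15427 genes tested, 42.8% were called, 22.1% lower and 20.8% higher. Of the protein-coding genes among them, 46.0% were called, 25.6% lower and 20.4% higher. With library totals in place of TMM scaling the split of the 47 genes was 17 lower and 8 higher. The median log2 fold change was -0.12, against 0.01 over all genes. Groups did not overlap for 18 genes with lower and 5 with higher values in sgYES1, which in all genes held for 20.0% and 19.2%. Called and at least 25% higher or 20% lower were 13 of the 47 genes (27.7%), against 21.3% of all genes tested, and CEP97 alone reached 1.5-fold. Without sgNTS replicate 4, which stood apart, 25 genes were called and 24 of them were among the 26.

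Of the 14 genes of centriole duplication and elongation, 9 fell in MDA-MB-231 and none rose, with a median log2 fold change of -0.30. PLK4 (chr4:127880861-127899195) had 46.1, 44.4, 45.6 and 43.7 CPM in the 4 sgYES1 libraries, against 68.2, 66.3, 62.5 and 61.5 CPM in the 4 sgNTS libraries. It averaged 44.97 ± 1.12 CPM in sgYES1 cells and 64.6 ± 3.13 CPM in sgNTS cells (SD, n = 4 each), far outside the spread of either group (log2 fold change -0.53, SE 0.05, adjusted p = 6.90e-07). STIL (chr1:47250139-47314147) had 57.2, 59.9, 58.7 and 56.3 CPM in the 4 sgYES1 libraries, against 77.4, 85.1, 77.4 and 84.6 CPM in the 4 sgNTS libraries, again with a clear gap (log2 fold change -0.49, SE 0.05, adjusted p = 1.32e-06). CEP85, which binds STIL and promotes activation of PLK4, had 57.2, 61.7, 62.9 and 56.6 CPM in the 4 sgYES1 libraries, against 83.4, 81.9, 79.2 and 78.96 CPM in the 4 sgNTS libraries (log2 fold change -0.44, SE 0.05, adjusted p = 3.05e-06). SASS6 had 17.9, 20.8, 19.2 and 20.3 CPM in the 4 sgYES1 libraries, against 24.9, 24.5, 23.8 and 26.9 CPM in the 4 sgNTS libraries (log2 fold change -0.36, SE 0.06, adjusted p = 0.000449). So all 4 of these early factors had lower values in every sgYES1 library than in any sgNTS library.

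CEP97 (chr3:101723925-101770562), which caps the centriole end and restrains its growth and cilium formation, had 26.7, 27.3, 25.1 and 25.5 CPM in the 4 sgYES1 libraries, against 37.2, 41.3, 39.6 and 43.5 CPM in the 4 sgNTS libraries. It was 1.55-fold lower (log2 fold change -0.63, SE 0.06, adjusted p = 9.47e-07). CEP78 had 35.2, 36.8, 32.5 and 38.9 CPM in the 4 sgYES1 libraries, against 53.99, 50.03, 48.9 and 52.2 CPM in the 4 sgNTS libraries (log2 fold change -0.52, SE 0.06, adjusted p = 5.82e-06), and CEP120 averaged 23.3 ± 1.44 CPM in sgYES1 cells and 31.7 ± 2.19 CPM in sgNTS cells (SD, n = 4 each; log2 fold change -0.46, SE 0.06, adjusted p = 5.66e-05). Neither gene's groups overlapped. CEP152 had 17.3, 17.6, 21.3 and 18.2 CPM in the 4 sgYES1 libraries, against 20.5, 25.2, 21.4 and 20.6 CPM in the 4 sgNTS libraries and the ranges overlapped (log2 fold change -0.24, SE 0.08, adjusted p = 0.0348), and CEP44 had 18.9, 17.8, 17.97 and 16.9 CPM in the 4 sgYES1 libraries, against 20.2, 21.1, 19.6 and 19.7 CPM in the 4 sgNTS libraries (log2 fold change -0.18, SE 0.06, adjusted p = 0.0287). Both calls were near the threshold. Leaving out any 1 of 5 libraries ended the call of CEP152 (sgYES1 replicate 1, 2 or 4 and sgNTS replicate 2 or 3, adjusted p of 0.0532 to 0.113). The same number did so for CEP44 (sgYES1 replicate 2, 3 or 4 and sgNTS replicate 1 or 2, adjusted p of 0.0512 to 0.0806). CENPJ had 21.9, 19.98, 23.4 and 23.9 CPM in the 4 sgYES1 libraries, against 26.5, 26.9, 20.6 and 21.5 CPM in the 4 sgNTS libraries and no call (log2 fold change -0.10, SE 0.09, adjusted p = 0.403; 95% interval -0.29 to 0.09). CEP63, CEP135, CEP295 and CNTROB, which is centrobin of the daughter centriole, were not called either, at log2 fold changes of -0.12 to 0.04.

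**Figure D2:**
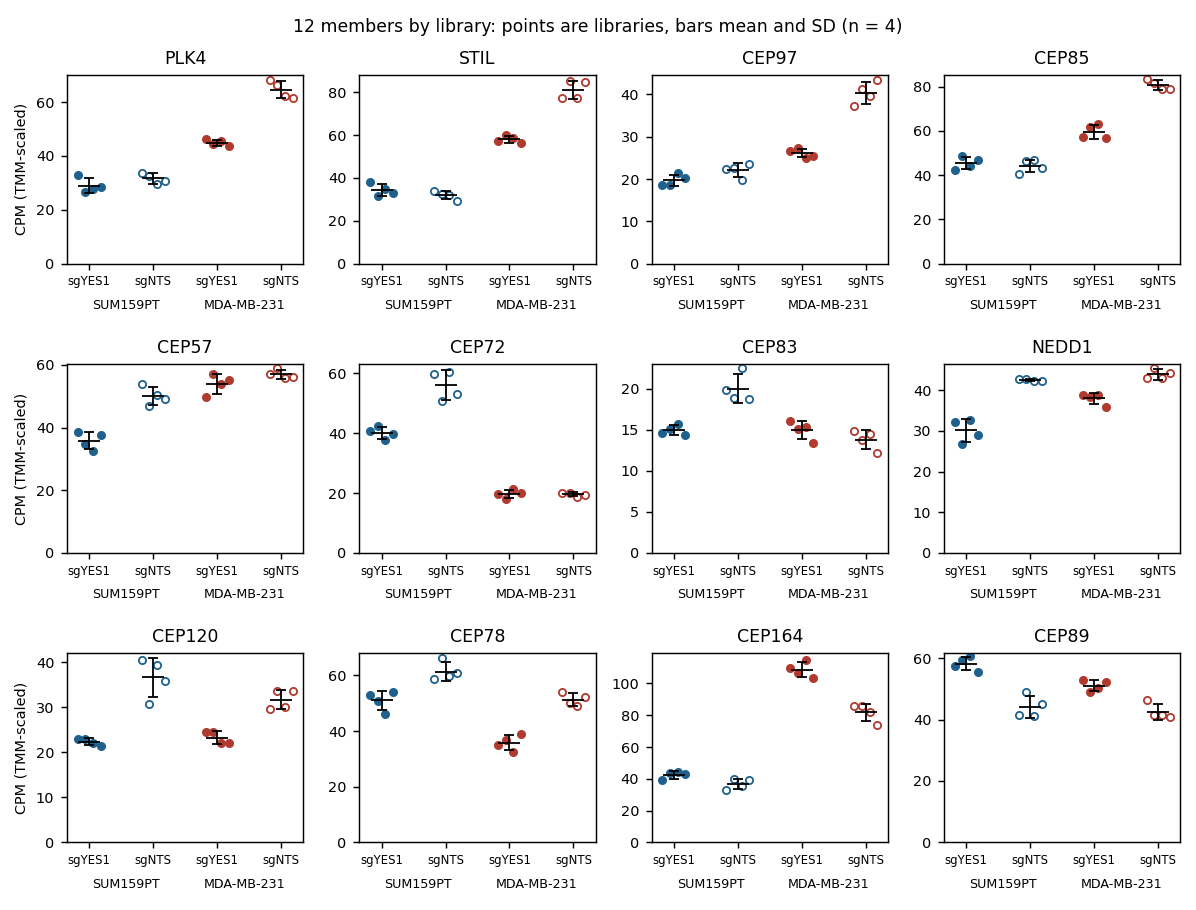
TMM-scaled CPM of 12 genes in each of the 16 libraries (points), with the mean and SD of 4 libraries, for sgYES1 (filled) and sgNTS (open) in SUM159PT (left pair) and MDA-MB-231 (right pair); axes start at 0. PLK4, STIL, CEP97 and CEP85 (top) separate the guides in MDA-MB-231 and overlap in SUM159PT, while CEP57, CEP72 and CEP83 show the reverse.

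Of the 9 genes of the pericentriolar material and gamma-tubulin, 5 fell and 1 rose in MDA-MB-231. TUBGCP3 had 39.6, 42.3, 44.4 and 45.2 CPM in the 4 sgYES1 libraries, against 60.6, 60.4, 60.3 and 63.1 CPM in the 4 sgNTS libraries, the largest fall in the group (log2 fold change -0.51, SE 0.05, adjusted p = 1.49e-06). TUBG1 had 117, 121, 132 and 121 CPM in the 4 sgYES1 libraries, against 146, 146, 147 and 146 CPM in the 4 sgNTS libraries, and the 4 control values lay within 1 CPM of each other (log2 fold change -0.26, SE 0.04, adjusted p = 0.000141). NEDD1 had 38.9, 38.3, 38.9 and 35.9 CPM in the 4 sgYES1 libraries, against 42.9, 45.6, 42.9 and 44.3 CPM in the 4 sgNTS libraries (log2 fold change -0.21, SE 0.05, adjusted p = 0.00207). These 3 genes showed no overlap. CEP57L1 was lower too (-0.43, SE 0.08). CDK5RAP2 had 106, 96.9, 105 and 102 CPM in the 4 sgYES1 libraries, against 107, 107, 111 and 117 CPM in the 4 sgNTS libraries, a narrow gap (log2 fold change -0.11, SE 0.04, adjusted p = 0.0466) whose call was lost when sgYES1 replicate 2, 3 or 4, or sgNTS replicate 3 or 4, was left out (adjusted p of 0.0677 to 0.142). PCNT had 145, 137, 136 and 139 CPM in the 4 sgYES1 libraries, against 123, 121, 125 and 138 CPM in the 4 sgNTS libraries, overlapping through sgNTS replicate 4 (log2 fold change 0.13, SE 0.04, adjusted p = 0.0278). Its call was lost when sgYES1 replicate 1 or 4, or sgNTS replicate 1, 2 or 3, was left out (0.0502 to 0.101). CEP72 had 19.7, 18.1, 21.2 and 20.1 CPM in the 4 sgYES1 libraries, against 20.2, 20.2, 18.7 and 19.4 CPM in the 4 sgNTS libraries, with no call (log2 fold change 0.01, SE 0.06, adjusted p = 0.909), and CEP57 had 49.7, 57.1, 53.8 and 55.3 CPM in the 4 sgYES1 libraries, against 57.3, 59.02, 55.8 and 56.1 CPM in the 4 sgNTS libraries, likewise (log2 fold change -0.08, SE 0.05, adjusted p = 0.187).

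Appendage genes went both ways in MDA-MB-231, where 4 of the 13 genes of the linker, appendages and anchoring fell and 2 rose. CEP164 had 109.8, 107, 115 and 104 CPM in the 4 sgYES1 libraries, against 85.6, 85.7, 82.1 and 73.8 CPM in the 4 sgNTS libraries, the largest rise of any of the 47 genes (log2 fold change 0.41, SE 0.05, adjusted p = 1.85e-05). CEP89 had 53.04, 48.9, 50.3 and 52.3 CPM in the 4 sgYES1 libraries, against 46.3, 41.6, 41.4 and 40.96 CPM in the 4 sgNTS libraries (log2 fold change 0.26, SE 0.05, adjusted p = 0.000919). Every sgYES1 value of both genes lay above every sgNTS value. NIN had 106, 96.4, 91.8 and 93.9 CPM in the 4 sgYES1 libraries, against 111, 123, 125 and 146 CPM in the 4 sgNTS libraries, which did not overlap (log2 fold change -0.39, SE 0.07, adjusted p = 0.000481). CEP170 had 129.8, 123, 116 and 114 CPM in the 4 sgYES1 libraries, against 126, 143, 151 and 157 CPM in the 4 sgNTS libraries, where sgNTS replicate 1 lay inside the sgYES1 range (log2 fold change -0.26, SE 0.06, adjusted p = 0.00349). ODF2 (-0.28, SE 0.04) and CEP128 (-0.23, SE 0.09) fell as well. The call of CEP128 (adjusted p = 0.0421) was lost when sgYES1 replicate 1, 3 or 4, or sgNTS replicate 2 or 4, was left out (0.0775 to 0.125). CEP83 had 16.1, 15.1, 15.3 and 13.4 CPM in the 4 sgYES1 libraries, against 14.9, 13.7, 14.4 and 12.2 CPM in the 4 sgNTS libraries, with overlap (log2 fold change 0.11, SE 0.08, adjusted p = 0.301). CEP68 had 12.95, 11.6, 13.2 and 12.6 CPM in the 4 sgYES1 libraries, against 10.4, 12.1, 10.3 and 11.1 CPM in the 4 sgNTS libraries, and missed the threshold (log2 fold change 0.20, SE 0.08, adjusted p = 0.0535).

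Among satellite and ciliary base genes in MDA-MB-231, PCM1 fell and CEP290 rose. PCM1 had 86.3, 88.6, 79.95 and 86.8 CPM in the 4 sgYES1 libraries, against 94.8, 100.3, 99.7 and 110.4 CPM in the 4 sgNTS libraries (log2 fold change -0.25, SE 0.05, adjusted p = 0.000998). CEP290 had 35.7, 34.3, 34.4 and 32.3 CPM in the 4 sgYES1 libraries, against 25.7, 29.4, 27.2 and 29.3 CPM in the 4 sgNTS libraries (log2 fold change 0.29, SE 0.06, adjusted p = 0.00107). Neither overlapped. CEP55 had 100.3, 114, 108 and 119 CPM in the 4 sgYES1 libraries, against 160.1, 155, 158 and 154 CPM in the 4 sgNTS libraries, about as large a fall as that of PLK4 (log2 fold change -0.51, SE 0.05, adjusted p = 1.18e-06). CEP70 had 7.23, 10.2, 6.97 and 9.83 CPM in the 4 sgYES1 libraries, against 12.7, 10.2, 11.4 and 12.1 CPM in the 4 sgNTS libraries (log2 fold change -0.44, SE 0.12, adjusted p = 0.00926), and CEP95 had 28.98, 30.8, 32.1 and 30.8 CPM in the 4 sgYES1 libraries, against 25.6, 25.8, 24.5 and 24.6 CPM in the 4 sgNTS libraries, a rise without overlap (log2 fold change 0.29, SE 0.05, adjusted p = 0.000522). Part of the exons of CEP95 lies opposite DDX5, and reads of the pair cannot be told apart without strand.

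Both lines shared 17 calls, all in the same direction, which is 77.3% of the 22 calls in SUM159PT and 65.4% of the 26 in MDA-MB-231. Of all genes tested, 39.4% were called in SUM159PT and 42.8% in MDA-MB-231. The share of all genes called in both lines, or in the same direction, was not computed, so this overlap cannot be read as particular to centrosome genes. The 15 genes lower in both were CDK5RAP2, CEP120, CEP128, CEP152, CEP170, CEP44, CEP55, CEP57L1, CEP70, CEP78, NEDD1, NIN, ODF2, PCM1 and TUBGCP3, and those higher in both were CEP164 and CEP89. The lines share no libraries. For several of the 15 the fitted changes were close, as for NIN (-0.37 in SUM159PT and -0.39 in MDA-MB-231), PCM1 (-0.25 and -0.25) and CEP57L1 (-0.43 and -0.43). The 95% interval of the difference, SUM159PT minus MDA-MB-231, was -0.19 to 0.19 for NIN, -0.15 to 0.14 for PCM1 and -0.25 to 0.24 for CEP57L1. A further 16 genes were called in neither line, among them CENPJ, CEP63, CEP135, CEP250, CEP295, CEP350 and CNTROB. CEP350, which anchors microtubules at the centrosome, had 79.9 CPM in replicate 4 of MDA-MB-231 sgNTS, against 46.03 to 57.2 CPM in the other sgNTS libraries.

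The guide effect itself was then compared between the lines by the interaction term of a model of all 16 libraries. It was called for 17 of 47 genes (36.2%), against 24.5% of all 16640 genes and 27.7% of protein-coding genes tested. In 8 genes the effect was higher in SUM159PT (12.7% of all and 15.4% of protein-coding genes). In 9 it was lower there (11.9% and 12.3%). Higher means a less negative or more positive log2 fold change, and not a stronger response. Of the 14 genes of duplication and elongation, the effect was higher in SUM159PT for 5, lower there for 1 and not called different for 8. Of the 9 pericentriolar and gamma-tubulin genes it was higher there for 2 and lower for 4, and of the 13 linker, appendage and anchoring genes it was lower for 2, the distal appendage gene CEP83 and the linker gene CEP68. For 10 of the 47 genes (21.3%) the difference was called and the fold in SUM159PT was at least 25% higher or 20% lower than that in MDA-MB-231, against 16.1% of all genes tested.

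The 8 genes with the higher effect in SUM159PT were STIL, CEP85, CEP97, PLK4, TUBGCP3, CEP55, TUBG1 and CEP78. All were called lower in MDA-MB-231, and in SUM159PT they fell less or had no call. STIL had the largest difference, 0.61 on the log2 scale (SE 0.08, adjusted p = 7.24e-06). For CEP85 it was 0.48 (SE 0.08, adjusted p = 4.71e-05), for CEP97 0.46 (SE 0.10, 0.000853) and for PLK4 0.40 (SE 0.09, 0.00135). All 4 belong to the centriole duplication group. TUBG1 differed by 0.29 (adjusted p = 0.00179), TUBGCP3 by 0.30 (0.00506), CEP55 by 0.30 (0.00149) and CEP78 by 0.25 (0.03). The last 3 fell in both lines and fell further in MDA-MB-231. The call of CEP78 ended without MDA-MB-231 sgYES1 replicate 1 or 3 or SUM159PT sgYES1 replicate 4 (adjusted p of 0.0527 to 0.0817). SASS6 had a difference of 0.24 that was not called (adjusted p = 0.0855).

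The 9 genes with the lower effect in SUM159PT were CEP83, CEP72, CEP68, CEP57, CEP290, CEP44, CEP95, NEDD1 and CDK5RAP2. CEP83 had the largest difference, -0.53 (SE 0.12, adjusted p = 0.00149). For CEP72 it was -0.49 (SE 0.09, 0.000331), for CEP68 -0.44 (SE 0.10, 0.00131) and for CEP57 -0.40 (SE 0.08, 0.000721). These 4 genes were called lower in SUM159PT and had no call in MDA-MB-231. CEP290 (-0.38, adjusted p = 0.00482) and CEP95 (-0.31, 0.0139) rose in MDA-MB-231 alone. CEP95 had 30.04, 27.5, 27.95 and 24.9 CPM in the 4 sgYES1 libraries, against 29.5, 25.8, 30.5 and 26.7 CPM in the 4 sgNTS libraries in SUM159PT, with overlap. CEP44 (-0.35, 0.012), NEDD1 (-0.28, 0.0121) and CDK5RAP2 (-0.23, 0.00796) fell in both lines, further in SUM159PT.

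Calls of the difference for 4 of these 9 genes rested on single libraries. All 4 ended without SUM159PT sgNTS replicate 1, which left 13 of the 17 genes called. CEP44 had an adjusted p of 0.0603 without it. CDK5RAP2 also lost its call without replicate 2 or 3 of that group (0.0513 to 0.0672). NEDD1 lost it as well without MDA-MB-231 sgNTS replicate 3 or SUM159PT sgYES1 replicate 2 (0.0542 to 0.0818), and CEP95 without those same libraries or SUM159PT sgNTS replicate 3 (0.0529 to 0.0805).

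**Figure D3:**
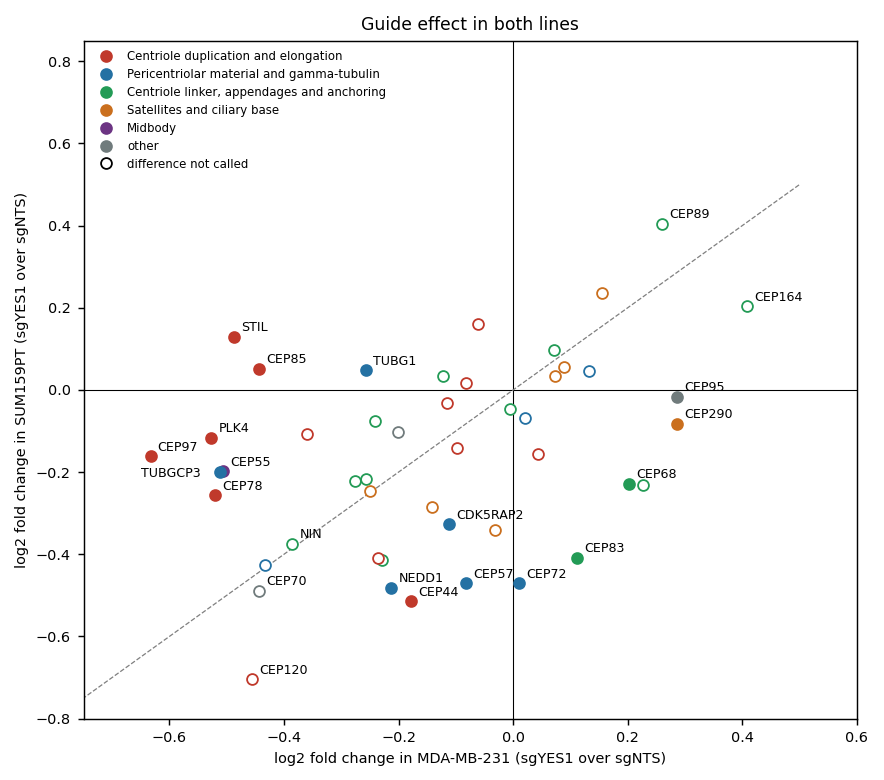
Fitted log2 fold change of sgYES1 over sgNTS in SUM159PT (vertical axis) against that in MDA-MB-231 (horizontal axis) for 47 genes, coloured by role. Filled points are the 17 genes whose effect differed between lines, and the dashed line marks equal effects. STIL and CEP85 lie left of and above the line, and CEP83, CEP72 and CEP57 below it.

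Related gene lists were read beside these results. Of 59 other centrosome genes, such as CCP110, the partner of CEP97, and the HAUS subunits, 21 fell and 3 rose of 59 tested in SUM159PT (median log2 fold change -0.11), and 25 fell and 5 rose of 57 tested in MDA-MB-231 (median -0.17). Called were thus 40.7% in SUM159PT and 52.6% in MDA-MB-231, against 39.4% and 42.8% of all genes, and called lower 35.6% and 43.9%, against 19.7% and 22.1%. Of protein-coding genes, 43.2% and 46.0% were called, and 21.6% and 25.6% were called lower. CCP110 fell in both lines, by 0.46 and 0.70 on the log2 scale. SSX2IP, which recruits pericentriolar material, fell by 0.78 in MDA-MB-231 and had a value of -0.14 with no call in SUM159PT. POC1A, a centriole wall protein, fell by 0.41 in MDA-MB-231 and had 0.06 with no call in SUM159PT, and CCDC61 fell by 0.87 in SUM159PT and had -0.23 with no call in MDA-MB-231. Each of these last 3 differed between lines, by 0.62, 0.45 and -0.65.

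Many centrosome genes are transcribed in step with the cell cycle. Of 20 G2/M genes, 7 fell and 1 rose in SUM159PT (median -0.09), and 20 fell in MDA-MB-231 (median -0.47). Of 15 G1/S genes, 2 fell and 7 rose in SUM159PT (median 0.10), and 14 fell and none rose in MDA-MB-231 (median -0.40). Of all genes tested, 19.7% were called lower and 19.6% higher in SUM159PT, and 22.1% and 20.8% in MDA-MB-231. Of protein-coding genes, these were 21.6% and 21.6%, and 25.6% and 20.4%. The effect was called higher in SUM159PT, so less negative or more positive, for 16 of the 20 and 14 of the 15. That call was made for 12.7% of all genes and 15.4% of protein-coding genes tested. Their part in the results on centrosome genes was not tested. By role, the median of duplication and elongation genes was -0.13 in SUM159PT and -0.30 in MDA-MB-231, that of pericentriolar and gamma-tubulin genes -0.33 and -0.11, that of linker, appendage and anchoring genes -0.22 and -0.01, and that of satellite and ciliary base genes -0.08 and 0.07.

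**Figure D4:**
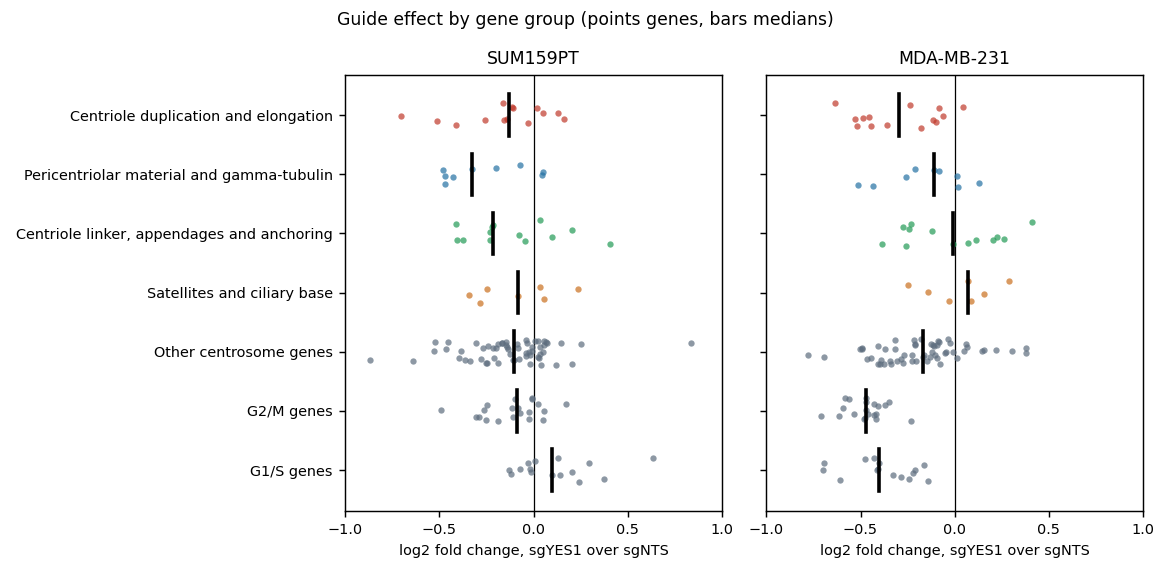
Fitted log2 fold change of sgYES1 over sgNTS for each gene (points) by group, with the median of the group (bars), in SUM159PT (left) and MDA-MB-231 (right). G2/M and G1/S genes lie left of 0 in MDA-MB-231, where their medians are -0.47 and -0.40. In SUM159PT both have genes on either side of 0, and their medians are -0.09 and 0.10.

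Promoter sequences were read for genes called in 1 line or in both, because E2F sites, CCAAT boxes and CHR elements are known from promoters of cell-cycle genes. RefSeq (GRCh38.p14) gave 58 windows, from 250 bases before to 50 after a start, for 41 of the 48 genes. The letters searched on both strands were TTTGAA or TTCGAA for CHR and CCAAT for the box of that name. For E2F they were TTCGCGC or TTCCCGC, and also TTGGCGC or TTTGGCG. The letters CCAAT can overlap its own reverse, ATTGG, as in CEP97, and the last 2 E2F forms can overlap ATTGG or each other. Shown are STIL and CEP97, lower mainly in MDA-MB-231, CEP55, lower in both lines, CEP72, lower in SUM159PT, and CEP164 and CEP89, higher in both, 5′ to 3′ along the gene, with matches in capitals.
STIL (chr1:47314098-47314397, minus strand): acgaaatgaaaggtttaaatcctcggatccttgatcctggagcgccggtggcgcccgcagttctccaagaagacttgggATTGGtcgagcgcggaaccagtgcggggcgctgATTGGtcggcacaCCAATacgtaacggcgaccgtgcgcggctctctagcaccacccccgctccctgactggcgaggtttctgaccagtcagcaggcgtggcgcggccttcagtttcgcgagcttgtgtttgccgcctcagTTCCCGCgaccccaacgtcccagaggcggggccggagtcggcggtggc
CEP97 (chr3:101724364-101724663, plus strand): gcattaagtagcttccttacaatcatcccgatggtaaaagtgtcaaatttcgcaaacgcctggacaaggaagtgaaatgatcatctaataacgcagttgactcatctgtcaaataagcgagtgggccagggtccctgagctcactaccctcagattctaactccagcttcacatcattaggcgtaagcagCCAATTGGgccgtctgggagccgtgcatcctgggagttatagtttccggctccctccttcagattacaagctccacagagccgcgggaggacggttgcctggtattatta
CEP55 (chr10:93496362-93496661, plus strand): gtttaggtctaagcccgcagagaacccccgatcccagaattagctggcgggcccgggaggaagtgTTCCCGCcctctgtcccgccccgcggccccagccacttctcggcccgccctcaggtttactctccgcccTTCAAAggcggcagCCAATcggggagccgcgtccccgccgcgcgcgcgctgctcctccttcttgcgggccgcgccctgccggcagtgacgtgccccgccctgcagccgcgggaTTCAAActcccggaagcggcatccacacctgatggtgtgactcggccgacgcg
CEP72 (chr5:612090-612389, plus strand): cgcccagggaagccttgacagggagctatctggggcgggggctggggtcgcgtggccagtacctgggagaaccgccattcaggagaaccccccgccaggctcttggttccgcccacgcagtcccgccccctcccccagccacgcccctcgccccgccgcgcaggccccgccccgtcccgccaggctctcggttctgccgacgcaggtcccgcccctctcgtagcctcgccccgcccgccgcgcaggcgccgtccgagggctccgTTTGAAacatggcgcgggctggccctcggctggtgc
CEP164 (chr11:117327604-117327903, plus strand): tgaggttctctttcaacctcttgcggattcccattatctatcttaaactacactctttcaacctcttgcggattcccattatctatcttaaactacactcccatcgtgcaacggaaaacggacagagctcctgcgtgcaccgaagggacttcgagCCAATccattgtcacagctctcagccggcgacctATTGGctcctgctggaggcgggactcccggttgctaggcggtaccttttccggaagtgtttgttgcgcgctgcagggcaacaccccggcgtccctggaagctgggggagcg
CEP89 (chr19:32971909-32972208, minus strand): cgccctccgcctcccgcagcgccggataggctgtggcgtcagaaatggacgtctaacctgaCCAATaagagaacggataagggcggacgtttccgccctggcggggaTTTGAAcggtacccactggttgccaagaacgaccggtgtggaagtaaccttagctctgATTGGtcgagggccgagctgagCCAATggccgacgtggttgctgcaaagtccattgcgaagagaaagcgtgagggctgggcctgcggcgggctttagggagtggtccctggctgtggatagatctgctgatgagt

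STIL held CCAAT letters 171, 138 and 125 bases before its start and an E2F form 2 bases after it. CEP97 held an overlapping pair of CCAAT letters 60 and 57 bases before the start and no E2F or CHR letters. CEP55 held all 3 kinds, with E2F letters at 185, CHR letters at 116 and 3, and CCAAT at 102 bases before the start. CEP72 held CHR letters 14 bases after its start, CEP164 held CCAAT letters at 95 and 61 bases before it, and CEP89 held CCAAT letters at 189, 85 and 63 and CHR letters at 143 bases before it. CEP72 does not stand for the other genes called lower in SUM159PT alone, which are not shown. Of these, CEP57 held all 3 kinds in a single window, CEP68 held CCAAT and E2F letters, and CEP83 and CEP131 held CCAAT letters only. E2F letters were present in 20 of the 58 windows (34.5%), against 12.1% of all 35116 windows and 15.03% of those of protein-coding genes. CCAAT letters were present in 27 (46.6%), against 34.6% and 34.7%, and CHR letters in 14 (24.1%), against 16.4% and 13.6%. Shares are of windows and not of genes. Some windows of a gene overlap, so a match can count more than once, as for E2F letters in CEP112 and CCAAT letters in CNTROB. E2F letters were about as frequent in windows of genes that fell in MDA-MB-231 (10 of 27) as of genes with no call there (10 of 25), and were in 0 of 6 windows of genes that rose. They were in 5 of 9 windows of genes called lower in MDA-MB-231 alone, and in 7 of 25 of genes lower in SUM159PT. By the difference of effects, they were in 5 of 10 windows of genes with the higher effect in SUM159PT. For genes with the lower effect there it was 3 of 12. These shares were not tested. A match of letters is a description and not a bound site.

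In sgNTS cells, the lines differed in many centrosome genes without any YES1 guide, and 9 of the 14 duplication and elongation genes were lower in SUM159PT. The test of SUM159PT over MDA-MB-231 called 12 genes higher and 23 lower, 35 of 47 in all (74.5%), below the 82.7% of all 15567 genes tested. Lower calls (48.9%) were near the 42.3% of all genes, and higher calls (25.5%) were fewer than the 40.4%. Line, medium and any processing by line cannot be told apart. At least 1.5-fold separated 21 genes, of which 15 were lower and 6 higher in SUM159PT.

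Of these 14 genes, 3 were higher in SUM159PT. STIL was 2.58-fold lower (log2 fold change -1.37, SE 0.06, adjusted p = 7.80e-12), PLK4 2.07-fold (log2 fold change -1.05, SE 0.06, adjusted p = 1.74e-10) and SASS6 1.90-fold (log2 fold change -0.93, SE 0.07, adjusted p = 9.65e-09). CNTROB, CEP135, CEP85, CEP97 and CEP295 were lower as well, at log2 fold changes of -1.30 to -0.75, and CEP63, the partner of CEP152, was higher (0.78).

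The widest gaps between the lines were those of CEP19 and NIN. CEP19, a partner of CEP350 in ciliogenesis, had 1.43, 1.09, 1.36 and 1.64 CPM in the 4 sgNTS libraries of SUM159PT, against 6.61, 8.36, 8.21 and 7.47 CPM in those of MDA-MB-231. It was 5.53-fold lower (log2 fold change -2.47, SE 0.15, adjusted p = 7.93e-10). NIN had 3.84-fold (-1.94), CEP170 2.74-fold (-1.45), CEP250 2.40-fold (-1.26) and CEP164 2.23-fold (-1.16) lower values in SUM159PT. In the other direction, CEP70 was 3.03-fold higher (1.599), CEP68 2.90-fold (1.54), CEP72 2.82-fold (1.496) and CEP170B 2.25-fold (1.17).

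CEP170 and its paralog CEP170B thus went opposite ways. CEP170B had 225, 232, 229 and 228 CPM in SUM159PT sgNTS libraries, against 100.5, 97.6, 104 and 100.1 CPM in those of MDA-MB-231. CEP170 was the one with 51.9, 54.6, 54.7 and 51.7 CPM in SUM159PT, against 126, 143, 151 and 157 CPM in MDA-MB-231. The sources used here do not say how reads shared between paralogs were counted, so both values are uncertain. The gamma-tubulin complex genes among the 47 differed little, TUBG1 by -0.37, TUBGCP3 by -0.31 and TUBGCP2 by -0.25. Outside the 47, on the list of other centrosome genes, TUBGCP4 (1.54) and TUBGCP5 (1.04) were higher in SUM159PT. TUBG2 (0.02) and TUBGCP6 (0.13) of that list had no call. Among the 47, no difference was called for PCM1 (-0.04), CDK5RAP2 (-0.02), NEDD1 (-0.06) and ODF2 (-0.03). The weakest calls, of CEP112, CEP120, CEP128, CEP152 and PCNT, each ended when 1 of several libraries was left out. Those of CEP120 and CEP128 also ended under every other scaling, no filter, DESeq2 and the replicate block, at adjusted p of 0.0532 to 0.185.

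**Figure D5:**
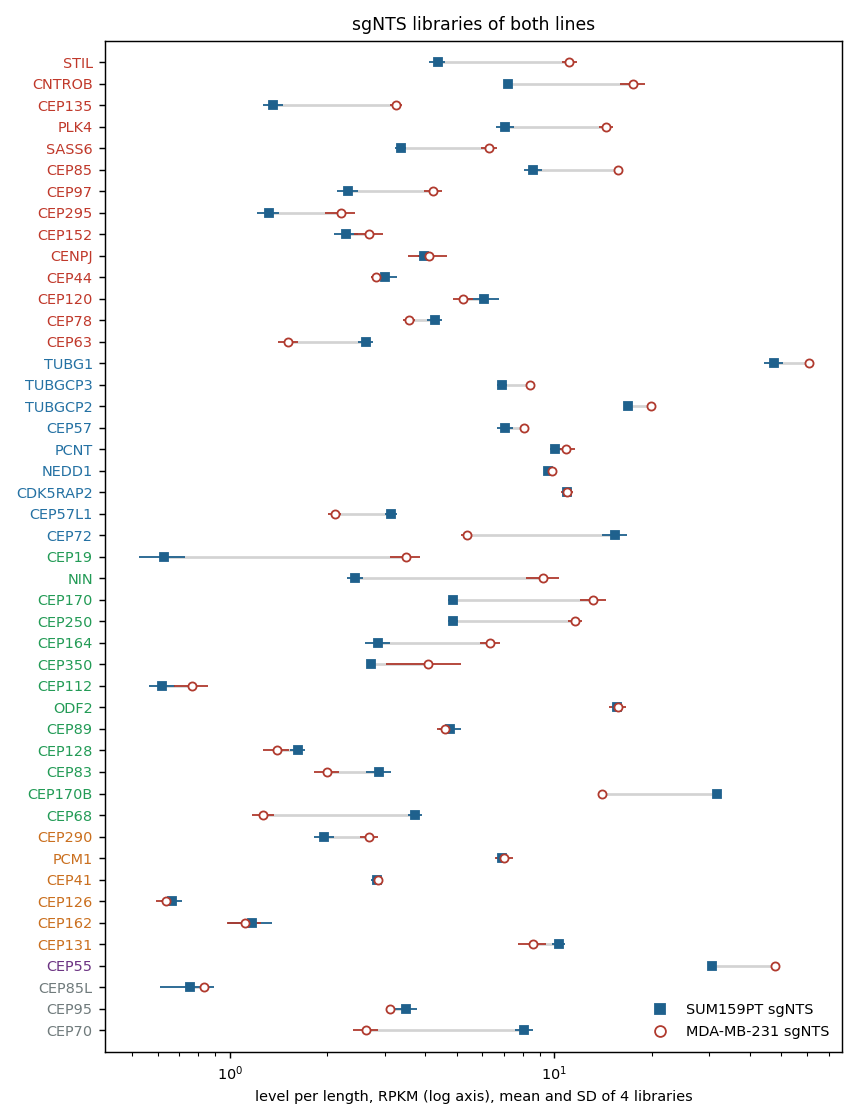
Level per length (RPKM, log axis) in sgNTS cells of SUM159PT (squares) and MDA-MB-231 (circles), mean and SD of 4 libraries, for 46 of the 47 genes coloured by role. TUBG1 is at the right in both lines, at 47.5 and 60.6 RPKM, and CEP19 shows the widest gap.

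Per length, in RPKM (CPM per kilobase of gene length), TUBG1 had the highest level of the 48 genes in both lines, at 47.5 ± 3.27 RPKM in SUM159PT and 60.6 ± 0.158 RPKM in MDA-MB-231 (sgNTS, SD, n = 4 each). In SUM159PT CEP170B and CEP55 followed closely together, at 31.8 ± 0.386 and 30.7 ± 0.752 RPKM. In MDA-MB-231 CEP55 was second, at 47.9 ± 0.899 RPKM. TUBGCP2 ranked next among the gamma-tubulin genes, at 16.9 ± 0.358 RPKM in SUM159PT and 19.9 ± 0.450 RPKM in MDA-MB-231. Low in the order were CEP112 (0.620 ± 0.0559 RPKM in SUM159PT and 0.766 ± 0.0911 RPKM in MDA-MB-231) and CEP126 (0.663 ± 0.0477 RPKM in SUM159PT and 0.638 ± 0.0468 RPKM in MDA-MB-231). The median of the 47 genes was 4.28 RPKM in SUM159PT and 4.61 RPKM in MDA-MB-231 sgNTS cells, against 6.28 and 5.78 RPKM over protein-coding genes tested. PLK4, at 7.06 ± 0.447 RPKM in SUM159PT and 14.4 ± 0.699 RPKM in MDA-MB-231, was above both medians in each line. STIL, at 4.36 ± 0.253 RPKM in SUM159PT, was near the median of the 47 genes and below the protein-coding median there. In MDA-MB-231 STIL had 11.1 ± 0.594 RPKM, above both medians.

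Exons of some genes overlap those of a neighbour, and the sources used here do not say whether reads were counted by strand. Shared exon bases came to 13.9% in CEP295, 11.6% in TUBGCP2, 11.0% in CEP72 (opposite TPPP), 8.78% in CEP68 (opposite RAB1A), 8.36% in CEP95 and 7.35% in SASS6, and to less in the others. For SASS6, CEP112 and CEP295NL the neighbour lies on the same strand, so counting by strand would not separate those reads.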

How the data were processed

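Poly-A RNA from 16 libraries, 4 per group, was copied with random hexamers, per the labels' protocols. Each line has a table of whole-number gene counts, which the authors deposited without normalization. The submitters' processing notes name the build hg38, the aligner HISAT2 2.0.5 and the counter featureCounts 1.5.0-p3, but no settings for strand or multiple matches are given in the sources used here. Of 58735 genes, 58724 had the start and end of GENCODE 29.

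TMM-scaled counts passing filterByExpr (minimum count 10, minimum total 15) were tested by edgeR 4.0.16 (R 4.3.3) with its quasi-likelihood F-test. The guide effect in a line came from that line's 8 libraries alone. The difference of effects used the interaction over all 16 libraries, and the difference of lines the 8 sgNTS libraries. P-values were two-sided and adjusted by Benjamini-Hochberg over all genes tested, with calls under 0.05. SE are those of the fitted log2 fold change, computed from the F statistic. CPM and RPKM (per kilobase of the deposited gene length) are TMM-scaled over all 16 libraries. The code was tested on simulated data.

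Depth was 14.4 to 25.1 (in units of 1e6 counts) per library, and the biological coefficient of variation was 5.66% in SUM159PT and 5.85% in MDA-MB-231. No library was a copy of another: chi-square per degree of freedom was at least 2.33 for every pair in a group, and up to 29.1 for pairs with MDA-MB-231 sgNTS replicate 4.

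The genes and lists were chosen with earlier results of these data known. Values in every library are given for 13 core genes and, per comparison, the 4 highest and 4 lowest called log2 fold changes at a mean of at least 1 CPM, or the 6 smallest p for the difference of effects. Other genes named come from fixed lists, and CEP350 and examples within lists were chosen after their values were seen. Alternatives were other scalings, no filter, DESeq2 1.42.0, a replicate block, a shared fit, a minimum change (25% higher or 20% lower) and each library left out. The values of 1 gene are not reported here, though it is included in the counts and medians.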

Additional observations from a re-analysis of the deposited data

Results flagged for a closer look

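In 3 of 120 groups of 4 libraries, 1 library lay far from the others by the ratio of its gap to the range, where chance gives about 1 in 20. CEP89 had 46.3 CPM in replicate 1 of MDA-MB-231 sgNTS, against 41.0 to 41.6 CPM in its other libraries (ratio 0.886). SASS6 had 12.6 CPM in replicate 4 of SUM159PT sgNTS, against 13.6 CPM in each of the others (ratio 0.978), a small gap in a tight group. TUBGCP3 had 63.1 CPM in replicate 4 of MDA-MB-231 sgNTS, against 60.3 to 60.6 CPM (ratio 0.911). The call of CEP89 in MDA-MB-231 and that of TUBGCP3 there did not end when any 1 library was left out.

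The guide effect differed between the lines for 17 genes, by the interaction test of edgeR. The differences on the log2 scale, SUM159PT minus MDA-MB-231, were 0.61 for STIL, 0.48 for CEP85, 0.46 for CEP97, 0.40 for PLK4, 0.30 for TUBGCP3, 0.30 for CEP55, 0.29 for TUBG1 and 0.25 for CEP78. They were -0.53 for CEP83, -0.49 for CEP72, -0.44 for CEP68, -0.40 for CEP57, -0.38 for CEP290, -0.35 for CEP44, -0.31 for CEP95, -0.28 for NEDD1 and -0.23 for CDK5RAP2. STIL and CEP85 had fitted changes of opposite sign in the lines, at 0.13 and 0.05 in SUM159PT, neither called, against -0.49 and -0.44 in MDA-MB-231. CEP83 had -0.41 in SUM159PT and 0.11, not called, in MDA-MB-231.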

How the results depend on the processing

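No gene with a call in any of the 4 comparisons reversed its direction under any alternative run. Calls held under every scaling, filter, tool, block, shared-fit and left-out-library alternative for 20 of 22 genes in SUM159PT, 21 of 26 in MDA-MB-231, 12 of 17 in the difference of effects and 30 of 35 between sgNTS cells. With a minimum change of 25% higher or 20% lower, 13 genes were called in SUM159PT, 13 in MDA-MB-231 and 10 in the difference of effects, fewer by construction. Leaving out 1 library gave 21 to 25 genes in SUM159PT, 22 to 25 in MDA-MB-231, 13 to 18 in the difference of effects and 31 to 35 between sgNTS cells. In MDA-MB-231, besides the libraries named for them, CDK5RAP2, CEP128, CEP152 and CEP44 lost their calls with library totals as the only scaling. CDK5RAP2, CEP128 and CEP44 also lost them with DESeq2, CDK5RAP2 and CEP44 with the replicate block and CDK5RAP2 with RLE scaling (adjusted p of 0.0513 to 0.254 for these 4 genes), and PCNT with no filter (adjusted p = 0.103). Library totals raised the share of higher calls among all calls in MDA-MB-231 to 59.8%, against 48.5% with TMM.

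Replicate numbers did not pair the samples, since same-numbered libraries correlated in their deviations by -0.08 to 0.03. With the replicate block, 23 genes were called in SUM159PT, 24 in MDA-MB-231, 18 in the difference of effects and 33 between sgNTS cells. The libraries may be technical replicates, so the spread between cultures is unknown. Depth limited the lowest genes, such as CEP19 in SUM159PT, where its guide effect had a 95% interval of -0.79 to 0.33.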
